A study of Mus musculus with 3 samples.

Results

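The SWI/SNF genes described here are Smarca2, Smarca4, Smarcc1, Smarcc2, Smarcd1, Smarcd2, Smarcd3, Smarce1, Arid1a and Arid1b, which encode the ATPases, the core scaffold and the ARID subunits of the complex. They were picked by gene symbol, are 10 of the 31053 genes in the count tables, and all 10 were found in each of 3 tumors. The study profiled single cells of 3 mouse rhabdoid tumors of its R26-SHH group, brain tumors of mice that carry floxed alleles on both copies of Smarcb1 and a tamoxifen-inducible Cre under the Rosa26 promoter (Rosa26-CreERT2::Smarcb1flox/flox). All 3 animals share that genotype, and no tumor or brain from an animal with intact Smarcb1 was among the samples used here. Because Rosa26 drives Cre in most cell types, recombination was not aimed at a chosen cell, and cells that escaped it can lie in the same tumor with Smarcb1 intact. The comparisons below were therefore made between classes of cells within each tumor, and the tumor was the replicate.

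SWI/SNF (BAF) complexes use the energy of ATP to slide or evict nucleosomes and so open enhancers and promoters. The canonical complex holds an ATPase, SMARCA2 or SMARCA4, on a scaffold of SMARCC1 and SMARCC2 with SMARCE1, SMARCB1, a SMARCD subunit and ARID1A or ARID1B, while a non-canonical form lacks SMARCB1, SMARCE1 and the ARID subunits. SMARCA2 and SMARCA4 exclude each other in a complex, as do ARID1A and ARID1B, and neural development is known for exchanges of such subunits as progenitors become neurons. Loss of SMARCB1 is the hallmark of rhabdoid tumors, in which complexes that lack it remain.

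After removal of low-quality barcodes and likely doublets, 8851, 7111 and 4854 cells stayed in tumors 1, 2 and 3, of which 7777, 5796 and 3692 held at least 1000 UMIs (unique molecular identifiers, each a captured transcript). Marker genes that include no SWI/SNF gene assigned 5029, 2752 and 2700 cells to a neural tumor class, 471, 301 and 116 to an immune-like class and 43, 19 and 19 to a vascular-like class, while 28.6, 46.7 and 23.1% of cells met no gate. Since only tumor 1 had 20 gated vascular-like cells, vascular-like cells were also taken from clusters made without the SWI/SNF genes (232, 148 and 180 cells). UMIs were summed over the cells of a class and tumor, and levels are given as CPM, the UMIs of a gene per 1000000 UMIs of that sum. In such sums, fewer transcripts per cell and fewer expressing cells cannot be told apart. Where values of a gene are said not to overlap, the share of all genes without overlap was not counted. Markers kept out of the gates matched the labels: the immune markers C1qc and Ctss summed to 9163 to 9591 CPM in immune-like cells and 6.01 to 35.1 in tumor cells, and the neural markers Sox11, Igfbpl1 and Dlx6os1 summed to 2089 to 2991 in tumor cells and 72.3 to 119 in immune-like cells. T and NK cell markers stayed at 0 to 1.48 in immune-like cells. Choroid plexus and ependymal markers reached 8.92 to 1169.7 in tumor cells and 0 to 42.8 in immune-like cells, and stress genes induced by dissociation 3483 to 4928 and 3197 to 4436. The part of these in the differences below was not tested. The 3 libraries shared 22 to 42 barcode sequences pairwise. Median depth was 9039, 6342 and 18718 UMIs per tumor cell and 2729, 5873 and 2475.5 per immune-like cell. 

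Smarcb1 itself (ENSMUSG00000000902, chr10:75896769-75921617) checked the classes. It stood at 0.630, 0.838 and 0.560 CPM in the tumor cells of tumors 1, 2 and 3, at 25.1, 23.6 and 22.1 in immune-like cells and at 47.0, 48.0 and 58.4 in vascular-like clusters. The groups did not overlap, and the log2 difference between tumor and immune-like cells was -5.84 (SE 0.36, adjusted p = 2.15e-07). Among rarer clusters, mesenchymal-like cells were as low as the tumor cells in tumors 1 and 2 (0.765, 0.285 and 4.27), while oligodendrocyte-like cells of tumors 1 and 2 had 92.6 and 45.9. Counts come from transcript 3′ ends on the mm10 build (GRCm38), and all positions given here refer to it. On the same strand, Gm27373 overlaps Smarca4 and Mir7227 overlaps Arid1a, so UMIs from the overlaps are uncertain for both pairs.

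The question set to the remaining subunit genes was whether cells without Smarcb1 transcripts hold them at the levels of intact neighbors. Among the classes tested, Smarcb1 status goes with cell type: the tumor cells are neural and the intact cells immune-like or vascular-like. The parts of genotype and cell type in a difference therefore cannot be told apart. Summed over the 10 genes, tumor cells had 1394, 1403 and 1400 CPM, against 477, 505 and 462 in immune-like cells. By edgeR's quasi-likelihood test with the tumor as a block and Benjamini-Hochberg adjustment, 9 of the 10 genes were higher in tumor cells and Smarcd2 was lower. Of all 13545 genes tested, 30.6% were called higher and 27.2% lower at an adjusted p under 0.05. The median log2 difference was 0.75 over the 10 genes and 0.19 over all genes. The fitted differences use TMM scaling. Scaling by total UMIs alone moves the median of all genes to 0.90 and the share of higher genes among those called from 52.9 to 75.6%, so the fitted differences lie below the log2 ratios of the CPM beside them. The directions of all 10 genes were the same under both scalings.

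**Figure D1:**
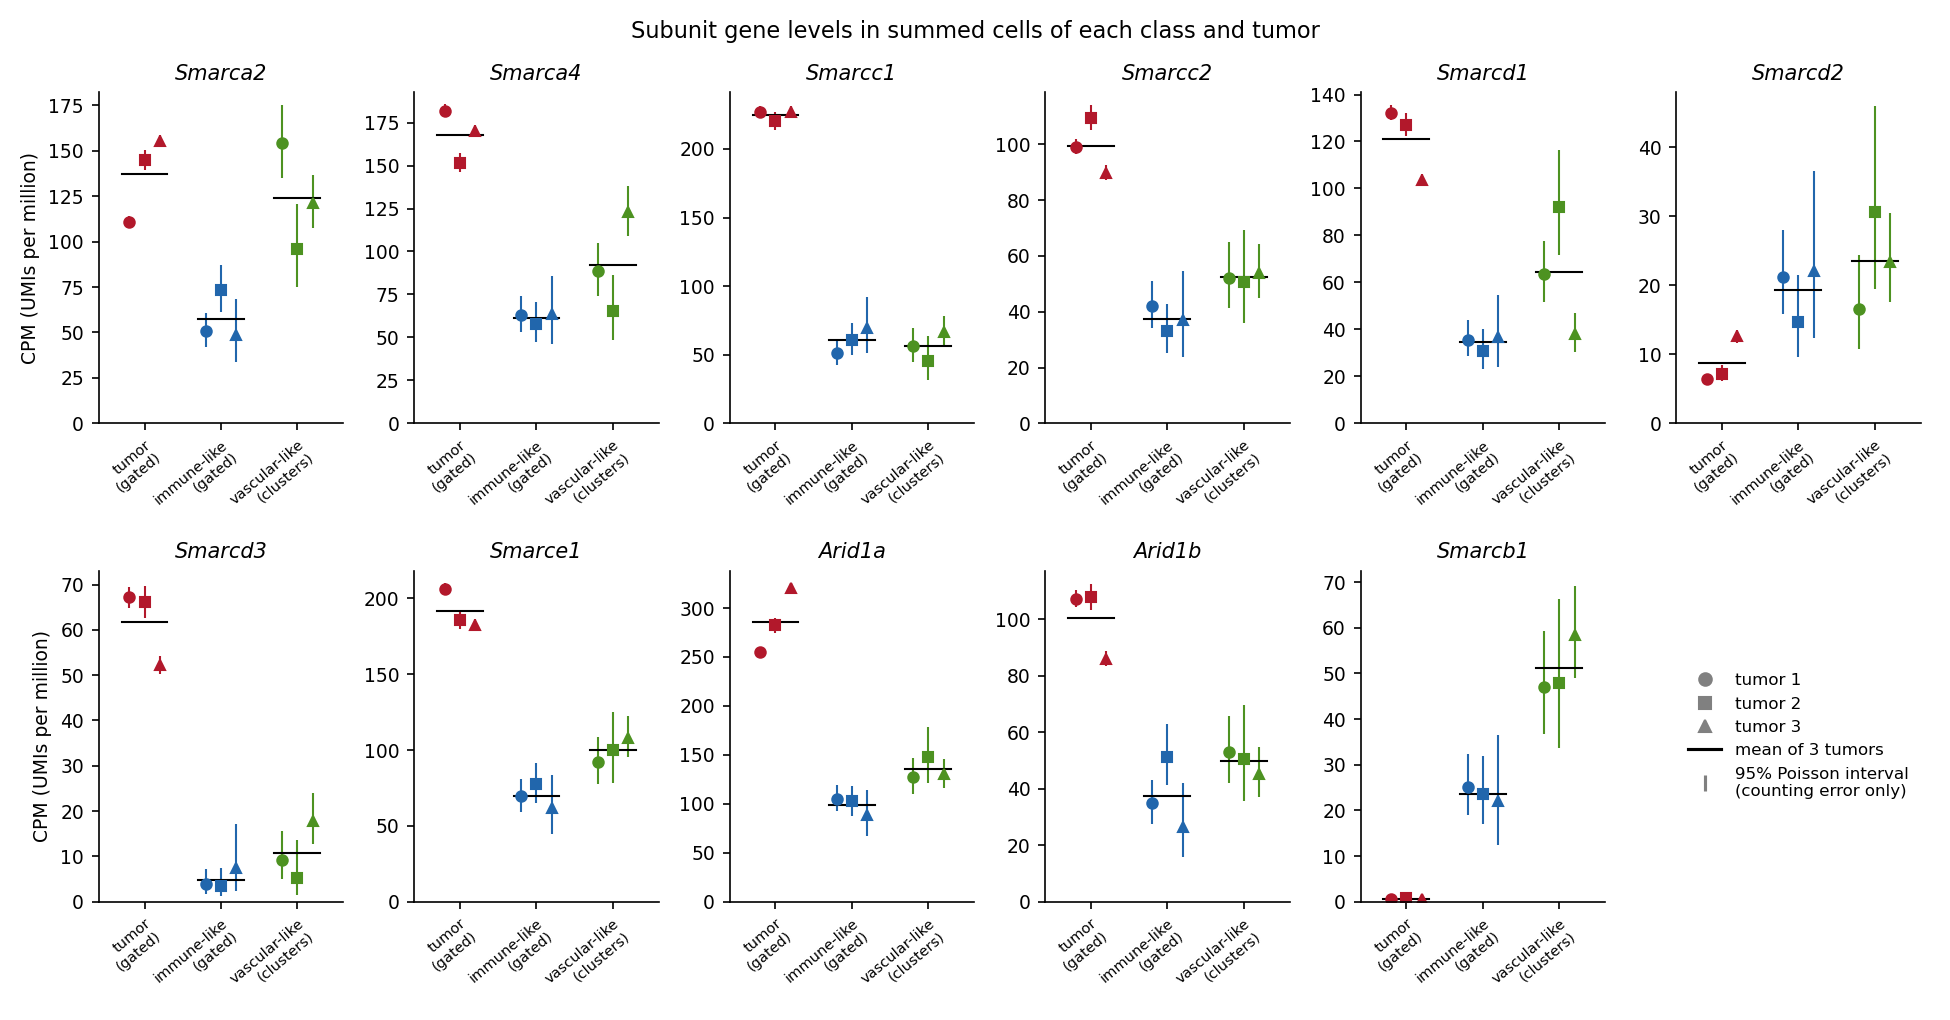
CPM (UMIs of a gene per 1000000 of the sum; vertical axis, linear from 0) of the 10 subunit genes and Smarcb1 in summed tumor cells (gated, red), immune-like cells (gated, blue) and vascular-like cells (clusters, green) of tumors 1 to 3. Lines are means of 3 tumors and thin bars are 95% Poisson intervals that cover counting error only; Smarcd2 lies lower in all 3 tumor-cell sums than in any immune-like sum, and Smarcb1 stays below 1.

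Of the ATPases, Smarca4 (ENSMUSG00000032187, chr9:21616169-21704230), the catalytic subunit linked to proliferating progenitors, measured 182, 152 and 170.0 CPM in tumor cells and 62.8, 58.0 and 63.4 in immune-like cells. The tumor-cell values lay above every immune-like value, with a log2 difference of 0.75 (SE 0.18, adjusted p = 0.00405). Its paralog Smarca2 (ENSMUSG00000024921, chr19:26605050-26778322) measured 111, 145 and 156 against 51.0, 73.2 and 48.7. Here too the groups did not overlap, and the difference of 0.53 (SE 0.21, adjusted p = 0.0494) was the smallest of the 10 and only just past the threshold.

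The scaffold gene Smarcc1 (ENSMUSG00000032481, chr9:110117708-110240178) varied little across the tumor-cell sums. Its level was 227, 220.2 and 227 CPM in tumor cells and 51.0, 60.8 and 69.3 in immune-like cells, and the fitted log2 difference was 1.22 (SE 0.18, adjusted p = 1.96e-04), or 2.32-fold. Smarcc2 (ENSMUSG00000025369, chr10:128459248-128490482), its partner in the scaffold, measured 99.2, 109.6 and 89.9 against 42.0, 33.2 and 36.9, with a difference of 0.71 (SE 0.19, adjusted p = 0.00802). Neither gene overlapped between the classes.

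The SMARCD genes, whose products link the complex to transcription factors, went in opposite directions. Smarcd3 (ENSMUSG00000028949, chr5:24590818-24624411), the paralog best known from heart and muscle and also found in neural tissue, measured 67.1, 66.0 and 52.2 CPM in tumor cells. Immune-like cells had 3.82, 3.38 and 7.38, which rest on 9, 6 and 5 UMIs. The log2 difference was 3.17 (SE 0.30, adjusted p = 5.40e-06), or 9.03-fold, the largest of the 10 in size. The immune-like level of Smarcd3 was 5.69, 5.11 and 14.1% of that in the tumor cells of the same tumor, and the tumor-cell transcript Sox11 was found in the immune-like cells at 3.92, 3.47 and 3.34% and Igfbpl1 at 7.14, 5.64 and 6.09%. Smarcd3 thus lay between both transcripts in tumors 1 and 2 and above both in tumor 3. In immune-like cells from clusters Smarcd3 was at 7.85, 8.93 and 17.0% (29, 23 and 20 UMIs), Sox11 at 3.88, 4.67 and 7.82% and Igfbpl1 at 5.41, 6.25 and 7.44%, so that Smarcd3 lay above both in each tumor. Dlx6os1, with 5, 5 and 2 UMIs there, was at 3.81, 3.08 and 30.8%, below Smarcd3 in tumors 1 and 2 and above it in tumor 3. The part of free tumor RNA in these UMIs was not tested.

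Smarcd2 (ENSMUSG00000078619, chr11:106263179-106272972), known for its role in granulocyte development, was the only member below the immune-like level. It measured 6.40, 7.20 and 12.6 CPM in tumor cells and 21.2, 14.6 and 22.1 in immune-like cells. The classes did not overlap, and the log2 difference of -1.94 (SE 0.31, adjusted p = 2.96e-04) corresponds to a 3.83-fold lower level under TMM scaling. In CPM the immune-like level was 332, 203 and 176% of that in the tumor cells of the same tumor, a smaller difference in each. The neutrophil markers S100a8 and S100a9 summed to 0 to 209 in immune-like cells, and their part in the Smarcd2 difference was not tested. Smarcd1 (ENSMUSG00000023018, chr15:99702129-99713991), the paralog with the most UMIs in both classes, measured 132, 127 and 104 against 35.7, 31.0 and 36.9, a difference of 1.13 (SE 0.19, adjusted p = 4.20e-04).

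UMIs are counted once per transcript at its 3′ end, so shares of paralogs were taken without a length correction. Of the summed SMARCD UMIs, Smarcd3 made up 32.6, 33.0 and 31.0% in the tumor cells of the 3 tumors and 6.29, 6.90 and 11.1% in immune-like cells. Smarcd2 made up 3.11, 3.59 and 7.48% and 35.0, 29.9 and 33.3%. The mean share of Smarcd1 was 63.1% ± 1.40 (SD, n = 3) in tumor cells and 59.2% ± 3.85 in immune-like cells. With each cell thinned to 1000 UMIs, the mean immune-like share of Smarcd3 was 17.1%, against 8.10% ± 2.62 without thinning. The immune-like shares rest on 143, 87 and 45 UMIs, and exact binomial intervals (95%, counting error only) for Smarcd3 there ran from 2.92 to 11.6% in tumor 1 and from 3.71 to 24.1% in tumor 3. No test was run on the shares.

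Because the 3 SMARCD paralogs moved apart, their RefSeq promoter windows (GRCm38.p6, 250 bases before to 50 bases after the annotated start) are shown, with every CG dinucleotide in capitals. They lie at chr15:99702037-99702336 on the plus strand for Smarcd1, and on the minus strand at chr11:106267583-106267882 for Smarcd2 and chr5:24601953-24602252 for Smarcd3.
Smarcd1: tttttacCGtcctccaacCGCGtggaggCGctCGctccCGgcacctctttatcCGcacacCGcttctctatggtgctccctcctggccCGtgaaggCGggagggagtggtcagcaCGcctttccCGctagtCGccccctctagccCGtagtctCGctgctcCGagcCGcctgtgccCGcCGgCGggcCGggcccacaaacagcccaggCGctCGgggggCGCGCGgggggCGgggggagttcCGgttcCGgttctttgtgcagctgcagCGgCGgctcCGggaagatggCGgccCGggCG
Smarcd2: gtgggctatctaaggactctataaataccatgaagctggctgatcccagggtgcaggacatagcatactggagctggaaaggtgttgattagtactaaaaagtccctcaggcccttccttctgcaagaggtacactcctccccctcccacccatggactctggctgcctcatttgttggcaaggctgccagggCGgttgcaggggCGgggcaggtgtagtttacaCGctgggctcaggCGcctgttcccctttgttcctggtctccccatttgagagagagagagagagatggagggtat
Smarcd3: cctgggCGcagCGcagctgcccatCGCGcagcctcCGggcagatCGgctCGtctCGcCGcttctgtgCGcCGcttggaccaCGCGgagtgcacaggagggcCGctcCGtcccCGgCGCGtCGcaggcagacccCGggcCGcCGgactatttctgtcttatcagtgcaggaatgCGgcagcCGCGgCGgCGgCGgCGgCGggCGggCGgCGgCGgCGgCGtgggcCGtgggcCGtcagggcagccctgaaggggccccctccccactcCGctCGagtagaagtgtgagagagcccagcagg
The Smarcd3 window holds 40 CG dinucleotides, the Smarcd1 window 35 and the Smarcd2 window 4. Across the 32851 promoter windows in the table the median is 7, and 3.91, 6.95 and 68.6% of windows hold at least as many. Both letters read the same on either strand. The Smarcd2 and Smarcd3 windows lie inside their annotated genes rather than at the 5′ edge, and counts from the 3′ end cannot tell which start was used.

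**Figure D2:**
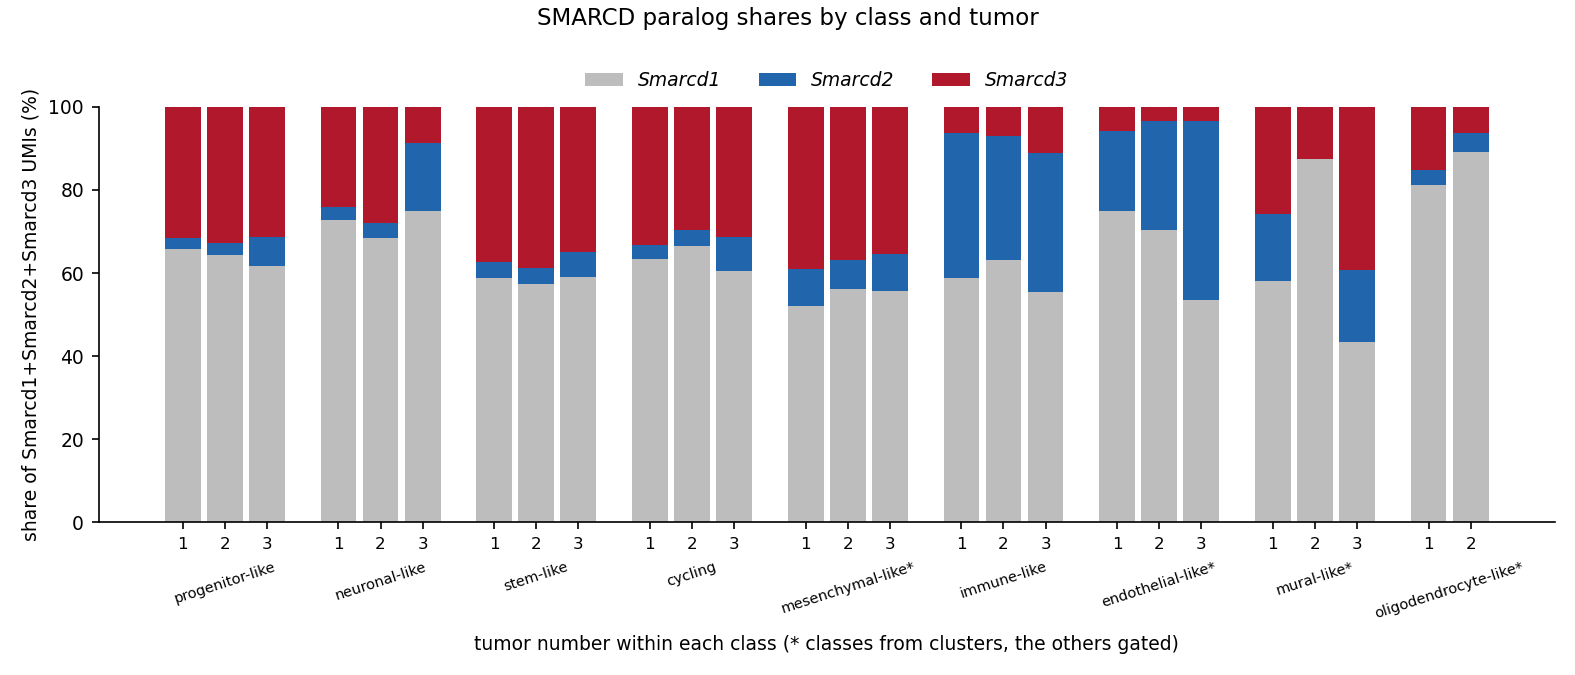
Share (%) of the summed Smarcd1, Smarcd2 and Smarcd3 UMIs held by each paralog, 1 bar per class and tumor, with classes from clusters marked by an asterisk. Smarcd3 (red) takes 32.6, 33.0 and 31.0% in all gated tumor cells and 39.1, 36.8 and 35.4% in mesenchymal-like clusters, and Smarcd2 (blue) takes 35.0, 29.9 and 33.3% in immune-like cells.

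Smarce1 (ENSMUSG00000037935, chr11:99209047-99231017), an HMG-box subunit of the core, measured 206, 186 and 182 CPM in tumor cells and 69.6, 77.7 and 62.0 in immune-like cells, with a fitted difference of 0.75 (SE 0.18, adjusted p = 0.00505). Arid1a (ENSMUSG00000007880, chr4:133679008-133756769), the DNA-binding subunit that is often lost in other cancers, measured 256, 282 and 321 against 105, 102 and 88.5, a difference of 0.82 (SE 0.20, adjusted p = 0.00462). Arid1b (ENSMUSG00000069729, chr17:4994332-5347656), its alternative in the complex, measured 107, 108 and 86.1 against 34.8, 51.2 and 26.6, a difference of 0.72 (SE 0.21, adjusted p = 0.0119). No tumor-cell value of these 3 genes reached down to an immune-like value. The share of Arid1a in the sum of both ARID genes was 73.9% ± 4.40 in tumor cells and 72.9% ± 5.47 in immune-like cells (SD, n = 3), closer together than the tumors were to each other.

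The number of genes called rested in part on tumor 1, which has the most immune-like cells. Without it 6 of the 10 passed beside 40.1% of all genes, against 57.8% with it, and Smarca2, Smarca4, Smarce1 and Arid1b did not. Smarcc2 did not pass without tumor 2, Smarca2 did not without tumor 3, and Smarcc2, Smarcd2 (-1.32 (adjusted p = 0.101)) and Smarce1 did not when each cell was thinned to 1000 UMIs (45.3% of all genes called). With immune-like cells from clusters, Smarca2 (log2 difference 0.60, adjusted p = 0.0609) and Arid1b (0.55, adjusted p = 0.0936) kept their direction but not the call, so that 8 of the 10 passed beside 53.3% of all genes.

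Vascular-like cells, another class with intact Smarcb1, were compared through the clusters. Of the 10 genes, 8 were higher in tumor cells, Smarcd2 was lower and Smarca2 did not pass, where 24.7% of 15078 genes were called higher and 22.5% lower. The median log2 difference was 0.87 over the 10 genes and 0.23 over all genes. Relative log expression scaling moves the latter to 0.03 and the share of higher genes among those called from 52.4 to 41.4%.

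Smarcc1 measured 239, 239 and 244 CPM in tumor-cell clusters and 56.2, 45.3 and 66.6 in vascular-like clusters, with a log2 difference of 1.95 (SE 0.16, adjusted p = 7.95e-07). Smarcd3 measured 68.0, 67.9 and 51.5 against 9.26, 5.33 and 17.7, a difference of 2.29 (SE 0.28, adjusted p = 2.67e-05). Smarcd2 measured 6.88, 7.56 and 14.1 against 16.5, 30.6 and 23.3, a difference of -1.43 (SE 0.31, adjusted p = 0.00206). These 3 genes did not overlap between the classes, and theirs were the differences of largest size. Both comparisons draw on the same 3 tumors, so agreement between them is not independent. The tumor-cell clusters leave out clusters without a name and those named astrocyte-like. Some of these were as low in Smarcb1 as the tumor cells.

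Smarcc2, Smarca4, Smarcd1, Smarce1, Arid1a and Arid1b were higher by 0.85 to 0.93 on the log2 scale. Under relative log expression scaling Arid1b did not pass, at 0.68 (adjusted p = 0.0537). Smarca2, the alternative ATPase, was the exception: it measured 112, 167 and 166 in tumor-cell clusters and 154, 95.9 and 121 in vascular-like clusters. The classes overlapped, tumor 1 ran opposite to tumors 2 and 3, and the difference was 0.10 with a 95% interval of -0.44 to 0.65 (adjusted p = 0.761). Within the vascular-like clusters Smarca2 stood higher in endothelial-like cells (188, 105 and 146) than in mural-like cells (60.4, 53.4 and 89.7) of each tumor. Smarcd3 had the opposite order, with 5.39, 4.84 and 2.29 in endothelial-like cells (6, 3 and 3 UMIs) and 20.1, 7.62 and 37.9 in mural-like cells (8, 1 and 38 UMIs). Neither contrast was tested.

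Several values moved with the vascular-like class. Stress genes induced by dissociation (Fos, Jun and 5 others) summed to 5996 to 9161 CPM in vascular-like clusters and 3217 to 3736 in tumor-cell clusters, and the 4 erythroid markers to 2.16 to 731 and 0.527 to 138. Sox11 stood in vascular-like clusters at 7.26, 7.36 and 11.8% of its tumor-cell level, Igfbpl1 at 7.07, 9.23 and 37.1%, Dlx6os1 at 2.74, 9.33 and 561% (1, 3 and 37 UMIs) and Smarcd3 at 13.6, 7.84 and 34.4%. In tumor 3 Dlx6os1 thus stood above its tumor-cell level. The part of these in the differences was not tested. With all tumors 47.2% of all genes were called in either direction. Without tumor 1, 5 of the 10 genes passed (Smarca4, Smarcd1, Smarce1 and Arid1b did not) beside 28.5% of all genes, and without tumor 3, 7 did (Smarcd1 and Arid1b did not) beside 39.5%. With gated cells and a minimum of 15 cells per sum, chosen after the data were seen to admit the gated vascular-like cells of all 3 tumors, 8 of the 10 genes passed beside 29.4% of all genes. Smarca2 (-0.04 (adjusted p = 0.941)) and Smarcc2 (0.76 (adjusted p = 0.127)) did not. Those sums are small: each held 3 UMIs of Smarcc1, or 17.8, 44.5 and 58.0 CPM, and Smarcd3 had 2, 0 and 0 UMIs.

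**Figure D3:**
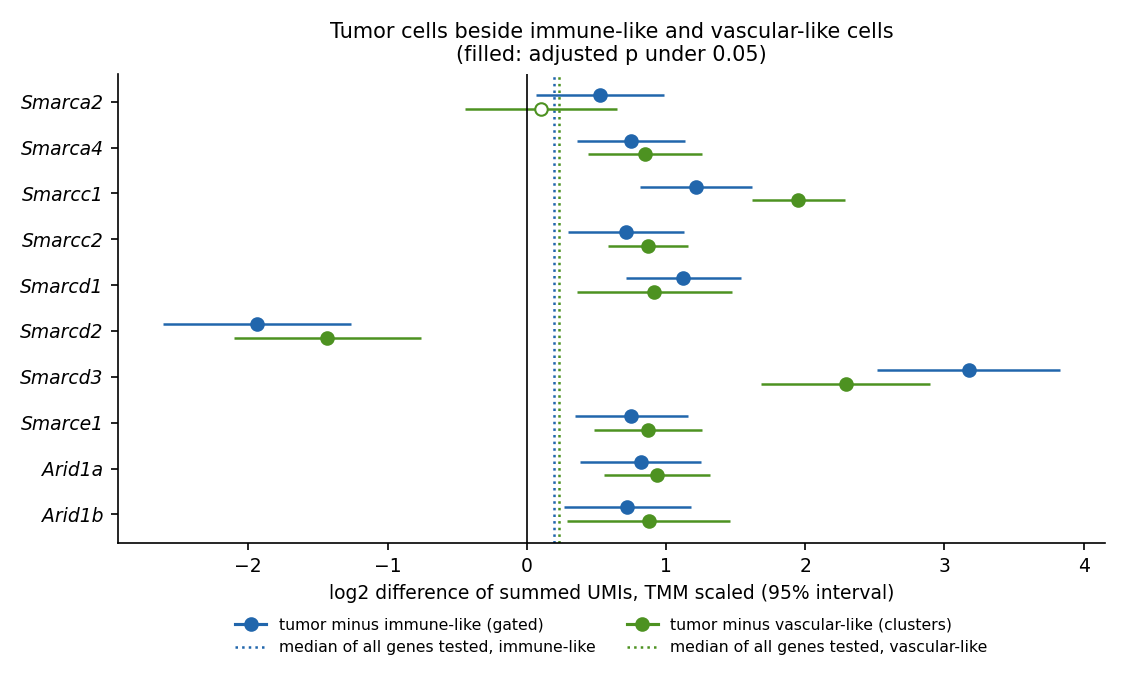
Fitted log2 difference (horizontal axis) of each subunit gene between tumor cells and immune-like cells (blue, gated) or vascular-like cells (green, clusters), with 95% intervals from 3 tumors and dotted lines at the median of all genes tested. Filled points passed an adjusted p under 0.05: Smarcd2 alone lies below 0 (-1.94 and -1.43), and Smarca2 is open against vascular-like cells.

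Between the intact classes themselves, 1 gene of the 10 passed with the clusters. Smarcc1 was higher in immune-like than in vascular-like clusters, at 60.8, 64.6 and 80.8 against 56.2, 45.3 and 66.6 CPM. The order held within each tumor but the ranges overlapped, and the log2 difference was 0.78 (SE 0.15, adjusted p = 0.00130), where 36.1% of all genes were called. With gated cells of all 3 tumors (minimum of 15 cells), Smarcc1 was higher by 1.76 (adjusted p = 0.00232) and Smarce1 by 0.96 (adjusted p = 0.0445), beside 27.7% of all genes called. The call depends on the scaling. With clusters and total UMIs alone Smarcc1 did not pass, at 0.29 (adjusted p = 0.178), whereas Smarca2, at -0.99 (adjusted p = 0.00936), and Smarcd1, at -0.83 (adjusted p = 0.0199), were lower in immune-like cells. The share of higher genes among those called fell under that scaling from 54.6 to 26.8%.

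Rarer clusters are given as levels only. Mesenchymal-like clusters, low in Smarcb1 as described, had Smarcd3 at 50.9, 47.4 and 53.4 and Smarcc1 at 124, 149 and 167 CPM. Their Smarcd3 share was 37.1% ± 1.89 (SD, n = 3), above that of tumor-cell clusters (30.8% ± 1.39). It was near that of gated stem-like tumor cells (37.0% ± 1.97) and astrocyte-like clusters (37.9% ± 3.58). Their Smarcd1 share was 54.6% ± 2.22, beside 64.3% ± 1.73 in tumor-cell clusters and 55.8% ± 1.91 in immune-like clusters. Oligodendrocyte-like clusters of tumors 1 and 2, with Smarcb1 intact, had Smarcd1 at 178 and 250.2, and the cluster like oligodendrocyte precursors in tumor 2 at 229. These 3 values lay above the Smarcd1 level of the summed tumor cells in every tumor. Smarcd3 measured 33.1 and 17.9 in the first and 24.2 in the second, and free tumor RNA was not estimated for these clusters.

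Within the Smarcb1-null tumor cells, markers separated progenitor-like, neuronal-like, stem-like and cycling cells. The gates took 2108, 814 and 1110 progenitor-like and 353, 457 and 50 neuronal-like cells in tumors 1 to 3. Between them, 5 of the 10 genes passed, 3 higher and 2 lower in neuronal-like cells, where 15% of 15394 genes were called higher and 16.3% lower. The median difference of the 10 genes was 0.13 and that of all genes -0.05, which total-UMI scaling moves to 0.14, with the share of higher genes among those called going from 47.9 to 69.2%.

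Smarca2 rose from 106, 138 and 169 CPM in progenitor-like cells to 225, 269.6 and 303 in neuronal-like cells, without overlap, and the log2 difference was 0.76 (SE 0.12, adjusted p = 1.64e-04). Smarcc2 rose from 104, 113 and 89.7 to 172, 169 and 206, a difference of 0.61 (SE 0.11, adjusted p = 5.23e-04). Smarcd1 rose from 138, 135 and 98.6 to 211, 159 and 206, a difference of 0.41 (SE 0.11, adjusted p = 0.00950). All neuronal-like values of these 3 genes lay above all progenitor-like values.

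Arid1a fell from 278, 309.8 and 330.4 to 233, 217 and 295, lower within each tumor though the ranges overlapped, with a difference of -0.52 (SE 0.11, adjusted p = 0.00228). Smarcc1 measured 238, 234 and 209.6 in progenitor-like and 249, 184 and 176 in neuronal-like cells, lower in tumors 2 and 3 and higher in tumor 1. It was called lower, with a difference of -0.35 (SE 0.11, adjusted p = 0.0275), but did not pass under relative log expression scaling, at -0.20 (adjusted p = 0.214), or total-UMI scaling, at -0.15 (adjusted p = 0.375). As shares, Smarcc1 in the SMARCC pair was 69.0% ± 1.45 in progenitor-like and 52.4% ± 6.55 in neuronal-like cells, Smarca4 in the ATPase pair 55.8% ± 7.95 and 44.0% ± 5.92, and Arid1a in the ARID pair 74.4% ± 4.46 and 63.2% ± 1.68 (SD, n = 3). Smarca4 itself measured 190.4, 167 and 158 in progenitor-like and 209, 159.7 and 263 in neuronal-like cells, ranges that overlap.

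Smarcd2 was 5.48, 6.28 and 11.1 in progenitor-like and 9.44, 8.30 and 45.5 in neuronal-like cells, and the difference of 0.86 (SE 0.34, adjusted p = 0.0661) missed the threshold. It passed with relative log expression scaling, at 1.01 (adjusted p = 0.0345), with total-UMI scaling, at 1.06 (adjusted p = 0.0287), with DESeq2, at 1.07 (adjusted p = 0.0136), and with a stricter gate of 5 markers, at 1.10 (adjusted p = 0.0305). Its highest value comes from tumor 3, which had 50 neuronal-like cells, and without that tumor the difference was 0.46 (adjusted p = 0.259). With classes from clusters, Smarcc2 alone of the 10 genes passed, beside 10.4% of all genes, and with the gates 3 of the 10 passed without tumor 1 (15.8% of all genes) or without tumor 2 (18.1%), against 31.2% of all genes with all tumors. Thinned to 1000 UMIs per cell, 3 passed beside 18.4%. Smarcd1, at 0.28 (adjusted p = 0.326), and Arid1a, at -0.22 (adjusted p = 0.375), did not, and both differences were smaller than without thinning. Median depth was 6014, 2846 and 9215 UMIs per neuronal-like cell and 9429, 7762.5 and 18476.5 per progenitor-like cell, and 4 markers of mature neurons (Snap25, Syt1, Gad1 and Slc17a7) summed to 239 to 386 and 66.5 to 89.7 CPM. The part of either in the differences was not tested.

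Among 20 other SWI/SNF genes, 6 were higher and 3 lower in neuronal-like cells, with a median of 0.05, beside 15% of all genes higher, 16.3% lower and a median of -0.05. Several of those that rose are paralogs known from the neuronal form of the complex. Actl6b, the neuronal actin-like subunit, rose from 4.76, 4.71 and 1.05 to 67.4, 73.3 and 55.4 CPM, a log2 difference of 4.08 (SE 0.36, adjusted p = 6.52e-07). Dpf1, a neuronal PHD-finger subunit, rose by 1.97, Dpf3 by 1.27 and Ss18l1, the neuronal paralog of Ss18, by 0.94. Ss18 fell, with a difference of -0.80, and Bicral, of the non-canonical complex, rose by 0.64. Smarcb1 stood at 1.80, 0 and 3.96 CPM in these neuronal-like cells. Dpf3 did not pass without tumor 1 or without tumor 2, and Bicral did not without tumor 1 or without tumor 3.

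**Figure D4:**
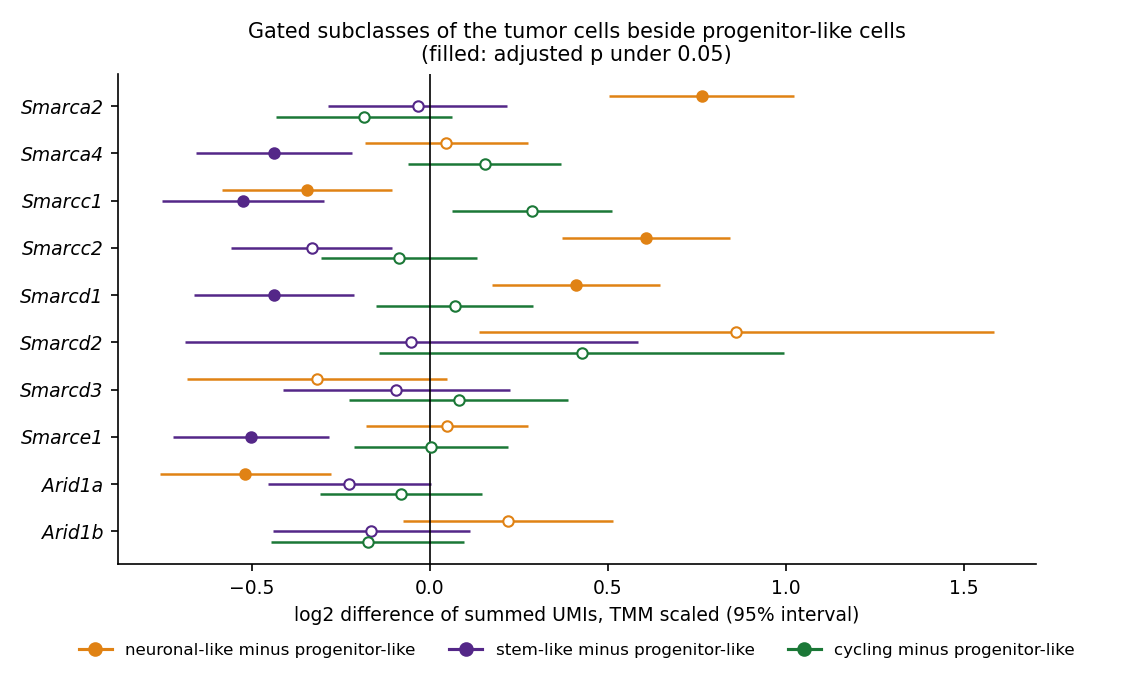
Fitted log2 difference (horizontal axis) of each subunit gene between neuronal-like (orange), stem-like (purple) or cycling (green) tumor cells and progenitor-like tumor cells, with 95% intervals from 3 tumors. Filled points passed an adjusted p under 0.05: Smarca2, Smarcc2 and Smarcd1 lie above 0 in neuronal-like cells, and no gene is filled for cycling cells.

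Stem-like cells (907, 590 and 350 cells) were lower than progenitor-like cells in 4 of the 10 genes and higher in none, where 3.38% of all genes were called lower and 6.66% higher. Smarcc1 measured 157, 164 and 147 against 238, 234 and 209.6 CPM, a log2 difference of -0.52 (SE 0.11, adjusted p = 0.00564). Smarce1 measured 151, 138 and 141 against 222, 208 and 186, a difference of -0.50 (SE 0.10, adjusted p = 0.00585). Every stem-like value lay below every progenitor-like value for both. Smarca4 (-0.44) and Smarcd1 (-0.44) were lower in each tumor too. Smarcd1 lost its edgeR call when cells were thinned to 1000 UMIs, at -0.26 (adjusted p = 0.446). It also lost it with a stricter gate, at -0.41 (adjusted p = 0.0732), and a looser gate, at -0.44 (adjusted p = 0.0768). The edgeR test called none of the 10 without tumor 1 (beside 1.11% of all genes), none without tumor 2 (2.51%) and none without the tumor block (0.13%), against 6 without tumor 3 (15%). The share of all genes called thus moved in the same direction. With classes from clusters, where no cluster of tumor 2 was named stem-like and the stem-like sums come from tumors 1 and 3 only, it called Smarcc1 alone, beside 1.9% of all genes. Of the 20 other SWI/SNF genes 4 were lower and none higher: Bcl11b (-1.02) and Bcl7a (-0.93), accessory subunits, Actl6a (-0.46), the progenitor actin-like subunit, and Pbrm1 (-0.39), a bromodomain subunit of PBAF. With classes from clusters 1 of those 20 was lower and none higher, beside the same 1.9% of all genes.

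Cycling cells (792, 299 and 792 cells) gave no call among the members. With edgeR 0 of the 10 genes passed and 1, Smarcc1, had an unadjusted p under 0.05, while DESeq2 called 2, where 11.5% of all genes were called by edgeR and 15.3% by DESeq2. Smarcc1 measured 264, 284 and 269 in cycling and 238, 234 and 209.6 in progenitor-like cells, higher in each tumor, with a log2 difference of 0.29 (SE 0.11, adjusted p = 0.0973). Members of the Polycomb complex PRC2, which opposes SWI/SNF at many genes, did differ there: of 10 tested, 6 were higher and 2 lower. Ezh2, its methyltransferase, was higher by 1.10 and Suz12, a core subunit, by 0.81. Hells, a remodeling ATPase active in replicating cells, was higher by 2.71.

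Beside immune-like cells, the related gene lists were called in both directions. Of the 20 other SWI/SNF genes, 11 were higher in tumor cells and 3 lower, and the list had a median log2 difference of 0.71, beside 30.6% of all genes higher, 27.2% lower and a median of 0.19. Bcl11a, Bcl11b and Bcl7a, subunits abundant in the developing brain, were higher by 3.24, 2.78 and 2.67. Of 16 other remodeling ATPases, 7 were higher and 2 lower (median 0.20), led by Smarca1, an ISWI ATPase of neural cells (3.41), and Chd3 (2.26). Of 9 PRC2 genes tested, 4 were higher and 1 lower (median 0.15), among them Ezh2 (1.62). The share called higher was thus 9 of 10 for the members and 11 of 20 for the other subunits. That difference in shares was not tested.

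For each member, the gene with the most similar pattern was taken by Pearson r of log2(CPM + 1) over 19 sums of gated class and tumor, centered on each tumor, among 15393 genes. It was Rimklb for Smarcd3 (r = 0.990), Elavl2 for Smarcc2 (0.990), Mfn2 for Smarca2 (0.986), Tfam for Smarcc1 (0.986) and Sun2 for Smarcd2 (0.900). The remaining 5 members had r of 0.984 to 0.994 with their closest gene. Among the members themselves, r was 0.77 to 0.97 over the pairs of the 8 genes other than Smarca2 and Smarcd2, a grouping made after the values were seen. Smarca2 had r of 0.25 to 0.73 with those 8 genes, and Smarcd2 had r of -0.72 to -0.06 with the other 9, lowest with Smarcd3. The sums cover the tumor-cell subclasses, immune-like cells and the endothelial-like cells of tumor 1. They share animals and libraries, and the part of each class in the spread was not computed, so these values describe likeness only.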

How the data were processed

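The authors made the UMI counts with Cell Ranger 3.1.0 on mm10 from 10x 3′ libraries and deposited them as whole counts per gene and barcode, not normalized. Barcodes with genes under the 5th percentile (at least 200) or with mitochondrial UMIs over 20% or over 3 scaled median absolute deviations from their median were removed, as were the cells with the highest Scrublet scores at 0.8% per 1000 cells (scanpy 1.11.5). A cell with at least 1000 UMIs was gated when at least 4 markers of a class were seen and that number was at least 3 times that of each other class. Leiden clusters of each tumor (resolution 1, 2000 variable genes without SWI/SNF genes, 30 components, 20 neighbors) gave the alternative classes. Counts were summed over at least 20 cells per class and tumor, with totals of 79529921, 40151353 and 67645602 UMIs in the libraries. edgeR 4.0.16 (R 4.3.3; quasi-likelihood, TMM, filterByExpr) tested the sums with the tumor as a block, because the sums of a tumor come from the same animal. Gate markers were not tested, p-values were adjusted over all genes tested by the Benjamini-Hochberg method, and a call is an adjusted p under 0.05. The p-values weigh class differences against their variation across 3 tumors after the block, with the spread estimated over all classes of a fit. The code was tested on simulated data. Alternatives were other scalings, DESeq2 1.42.0, no filter, no block, other gates, depths and cell filters, thinned cells and each tumor left out. Named genes were the 10 members, Smarcb1 and, from the lists, genes called and going the same way in each tumor, at most 6 per list by size. Members and lists were chosen with earlier results of these data known. Promoters come from RefSeq (GRCm38.p6), with entries for 9 of the 10 members, and gene positions from GENCODE. 1 marker of the immune check list is not reported here.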

Additional observations from a re-analysis of the deposited data

Results flagged for a closer look

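Smarcc1 differed between the immune-like and the vascular-like clusters, so that its excess in tumor cells was not the same beside both. The difference between those excesses, which is the log2 difference of immune-like and vascular-like cells, was 0.78 (adjusted p = 0.00130 by edgeR), and the level was higher in immune-like cells in 3 of 3 tumors. It did not pass with scaling by total UMIs alone (0.29, adjusted p = 0.178). Within the vascular-like clusters, Smarcc1 ran from 46.8 to 56.5 CPM in endothelial-like cells and from 38.1 to 82.7 in mural-like cells. The highest mural-like value thus lay above the highest immune-like value (80.8), and this split was not tested.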

How the results depend on the processing

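The direction of each of the 10 members beside immune-like cells was the same under every alternative run. Of the 473 alternative values of members in comparisons printed in the text, 390 kept direction and call, 74 kept direction but lost the call, 5 gained a call and 4 changed sign. Of 567 further values, of members that passed no threshold and are not printed, 455 stayed as they were, 38 gained a call and 74 changed sign, none of the latter past the threshold. The 4 sign changes among the printed members belong to Smarca2 in tumor cells beside vascular-like clusters, which was not called: it was -0.10 under relative log expression (RLE) scaling, -0.10 with DESeq2 and -0.13 to 0.34 with a tumor left out.

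The share of all genes called in the same fit follows each count of members in parentheses. Beside immune-like cells 10 members passed (57.8%), 8 without the block (50.2%) and 6 to 9 with a tumor left out (40.1 to 62.9%). The gated vascular-like cells gave 1 sum, so the counts from it test no class difference and describe those fits only. Beside them 4 passed (13.9%), 2 with RLE (13.3%) or total-UMI scaling (13.9%), 1 with DESeq2 (13%), 9 with a looser gate of 3 markers (38.3%), 8 when cells were removed only for failing both quality limits (30.5%), 9 with clusters (47.2%), 8 with a minimum of 15 cells (29.4%), and 5 to 6 with a tumor left out (18.8 to 21.2%). With clusters 5 to 9 passed with a tumor left out (28.5 to 39.5%). Between immune-like and gated vascular-like cells 1 passed (14.6%), 2 with RLE scaling (13.1%), no count filter (9.22%), both quality limits (28.1%), a minimum of 15 cells (27.7%) or a tumor left out (18.3 to 21.4%), and 0 when cells were thinned to 1000 UMIs (9.78%). With clusters 1 passed, Smarcc1 (36.1%), and, with total UMIs, 2 others (Smarca2 and Smarcd1, 39.5%). Between neuronal-like and progenitor-like cells 5 passed (31.2%), 3 without the block (12.5%), 3 thinned (18.4%), 1 with clusters (10.4%) and 3 to 4 with a tumor left out (15.8 to 31.6%). Between stem-like and progenitor-like cells 4 passed (10%), 0 without the block (0.13%), 1 with clusters (1.9%, stem-like sums of 2 tumors) and 0 to 6 with a tumor left out (1.11 to 15%). Between cycling and progenitor-like cells 0 passed (11.5%) and 2 with DESeq2 (15.3%). The cause of these changes was not tested, but gates that admit more vascular-like cells give more sums to the fit.

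Smarcb1 beside gated vascular-like cells was -4.28 when thinned and no longer passed (adjusted p = 0.365). Mean paralog shares moved by more than the spread between tumors with a stricter gate of 5 markers for Smarca4 (60.9%) and Smarcd1 (66.6%) in immune-like cells, with thinning for Smarcd1 (65.5% in tumor and 65.5% in immune-like cells), Smarcd3 (29.9 and 17.1%) and Arid1a in immune-like cells (67.1%) and in neuronal-like cells (66.7%), and with clusters for Smarcd3 (30.8 and 10.8%), Smarcc1 in progenitor-like cells (71.6%) and Arid1a in neuronal-like cells (66.0%). The stricter gate left no vascular-like sum, so that comparison could not be fitted. In immune-like cells Smarcd3 and Smarcd2 rest on 5 to 50 UMIs per tumor, and Arid1b on 18 UMIs in tumor 3.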
